A study of Mus musculus with 38 samples.

Results

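The insulin-like growth factor genes examined here are 10 genes chosen by name, Igf1, Igf2, Igf1r, Igf2r, Insr, Irs2, Igfbp2, Igfbp4, Igfbp5 and Igfbp6. They were found by their Ensembl identifiers among the 48709 genes counted in each mouse, and all 10 had reads in all 38 mice. The study sequenced hippocampal mRNA from C57BL/6 mice to ask how the transcriptome of an amyloid model responds to anle138b, a small molecule given in the chow, with a chow without it as placebo. APPPS1ΔE9 mice carry mutant APP and PS1 transgenes, which in this line are known to be driven by the prion promoter, and WT mice served as controls. The pre-plaque group was analyzed at 6 months of age and held WT and APPPS1ΔE9 mice, with 4 of each genotype on placebo and 4 of each on anle138b. The post-plaque group was analyzed at 10 months of age and held 5 mice on placebo for each genotype, and 5 WT and 7 APPPS1ΔE9 mice on anle138b. A genotype label of the 4 pre-plaque WT mice on placebo contradicts their titles, which were followed. The level of App, the gene carried by one of the transgenes, was 1506 to 1809 CPM (read counts scaled to the size of each library) in all WT mice and 3228 to 4318 CPM in all APPPS1ΔE9 mice, so that no library went against its title.

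IGF1 and IGF2 are secreted peptides related to insulin. Both act through the IGF1 receptor, a tyrosine kinase encoded by Igf1r, which also forms hybrids with the insulin receptor encoded by Insr. Irs2 encodes an adaptor that passes the signal of these receptors to the PI3 kinase and AKT pathway. The IGF2 receptor encoded by Igf2r has no kinase and carries IGF2 to the lysosome, and the binding proteins encoded by the Igfbp genes hold the peptides outside the cell and control their access to receptors. In the adult brain, Igf1 is known from microglia and some neurons, whereas Igf2 and Igfbp2 are known from the choroid plexus, the epithelium that makes cerebrospinal fluid, and from the leptomeninges, the fibroblast sheets that cover the brain.

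The promoter windows of Igf1, Igf2 and Igfbp2 are shown because Igf2 and Igfbp2 varied together between mice while Igf1 did not vary with them. Each window runs from 250 bases before to 50 bases after a RefSeq start (GRCm38.p6), 5′ to 3′ on the strand of the gene. Capitals mark GGGCGG (the GC box), TAATCC (the core bound by OTX factors) or GAGGAA (the purine box bound by PU.1), or the reverse complement of each, none of which overlap in the 3 windows.
Igf1, chr10:87860861-87861160, plus strand: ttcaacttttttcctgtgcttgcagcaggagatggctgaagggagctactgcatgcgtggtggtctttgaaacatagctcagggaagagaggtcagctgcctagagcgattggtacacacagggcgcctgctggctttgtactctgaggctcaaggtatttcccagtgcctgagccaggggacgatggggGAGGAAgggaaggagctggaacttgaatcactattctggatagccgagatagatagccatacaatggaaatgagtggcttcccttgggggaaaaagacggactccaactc
Igf2, the most downstream of its 4 starts, chr7:142657447-142657746, minus strand: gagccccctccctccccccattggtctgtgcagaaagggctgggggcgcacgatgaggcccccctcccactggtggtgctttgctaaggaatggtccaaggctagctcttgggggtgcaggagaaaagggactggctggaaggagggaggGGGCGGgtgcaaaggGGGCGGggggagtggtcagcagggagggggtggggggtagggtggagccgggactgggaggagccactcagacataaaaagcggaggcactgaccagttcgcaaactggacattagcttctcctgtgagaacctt
Igfbp2, the upstream of its 2 starts, chr1:72824230-72824529, plus strand: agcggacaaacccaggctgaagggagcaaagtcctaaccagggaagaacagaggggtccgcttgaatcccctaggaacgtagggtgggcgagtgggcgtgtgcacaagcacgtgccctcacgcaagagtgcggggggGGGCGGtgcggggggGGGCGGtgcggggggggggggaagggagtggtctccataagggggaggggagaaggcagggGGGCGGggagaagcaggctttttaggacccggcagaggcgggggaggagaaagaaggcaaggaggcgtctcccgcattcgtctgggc
The Igf2 window held 2 GC boxes and the Igfbp2 window 3, and the Igf1 window held none. Of 32851 promoter windows of the same length, 35.7% held a GC box, 7.06% the OTX core and 28.3% the purine box on either strand. The OTX core was in none of the 3 windows shown, and the purine box was in the Igf1 window only. The other starts differed from those shown, since 1 of the 3 other Igf2 windows held an OTX core, 2 of them and the other Igfbp2 window held no GC box, and all 4 held the purine box. The contrast in GC boxes thus holds for the windows shown and not for the genes. Promoters were in the table for 9 of the 10 genes.

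The 10 genes differed both in level and in how far they spread between mice. Per kilobase of exon, Igfbp5 had the highest median over the 38 mice, 34 CPM per kb, and was above the next gene in 38 of 38 mice. Igfbp4 (15.6 CPM per kb), Igfbp2 (10.99), Irs2 (10.7), Igf2 (9.44) and Igfbp6 (7.44) followed, and each of these was above its next neighbour in only 19 to 27 of the 38 mice, so that their order did not hold from mouse to mouse. Igf2r (6.58 CPM per kb), Insr (5.77) and Igf1r (4.61) came next and kept their order in 34, 38 and 38 mice, and Igf1 was the lowest in every mouse, with a median of 1.005 CPM per kb. Between the lowest and the highest mouse, Igf2 differed 17.4-fold and Igfbp2 11.99-fold, Igfbp6 5.34-fold, Igfbp5 3.15-fold and Igfbp4 2.13-fold. The receptors, Irs2 and Igf1 differed 1.34-fold to 1.62-fold.

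Neither genotype nor anle138b moved any of the 10 genes past the threshold. At a Benjamini-Hochberg adjusted p under 0.1 in edgeR's quasi-likelihood test over all genes, 0 of 10 were called in each of 14 comparisons, and DESeq2 also called 0 of 10 in each. In the comparison of APPPS1ΔE9 with WT mice the share of all tested genes called was 0.0715% (placebo) and 0.047% (anle138b) in the pre-plaque group, and 0.324% and 0.723% in the post-plaque group. With both chows in a single fit it was 0.172% before plaques and 1.56% after. For anle138b against placebo it was 0.0529% in pre-plaque APPPS1ΔE9 mice, and 0% in post-plaque APPPS1ΔE9 mice and in WT mice of both cohorts. For the interaction of genotype and chow it was 0% in both cohorts, and for the genotype effect after minus before plaques it was 0% on placebo and 0.028% on anle138b. A count of 0 of 10 is therefore near the background throughout. At an unadjusted p under 0.05, 2 of 10 genes passed in placebo-treated pre-plaque mice, where 11.1% of all genes did, and 1 each passed in pre-plaque APPPS1ΔE9 mice by chow (13.1% of all genes), in the pre-plaque and post-plaque genotype fits over both chows (10.5% and 7.07%) and in the change of the genotype effect on placebo (6.16%). In the other 9 comparisons 0 passed. The share of all genes was there 5.64% (pre-plaque genotype on anle138b), 4.1% and 5.78% (post-plaque genotype on placebo and on anle138b), 1.85% and 1.25% (chow in pre-plaque and post-plaque WT), 1.48% (chow in post-plaque APPPS1ΔE9 mice), 7.99% and 2.3% (pre-plaque and post-plaque interaction) and 5.84% (change of the genotype effect on anle138b).

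**Figure D1:**
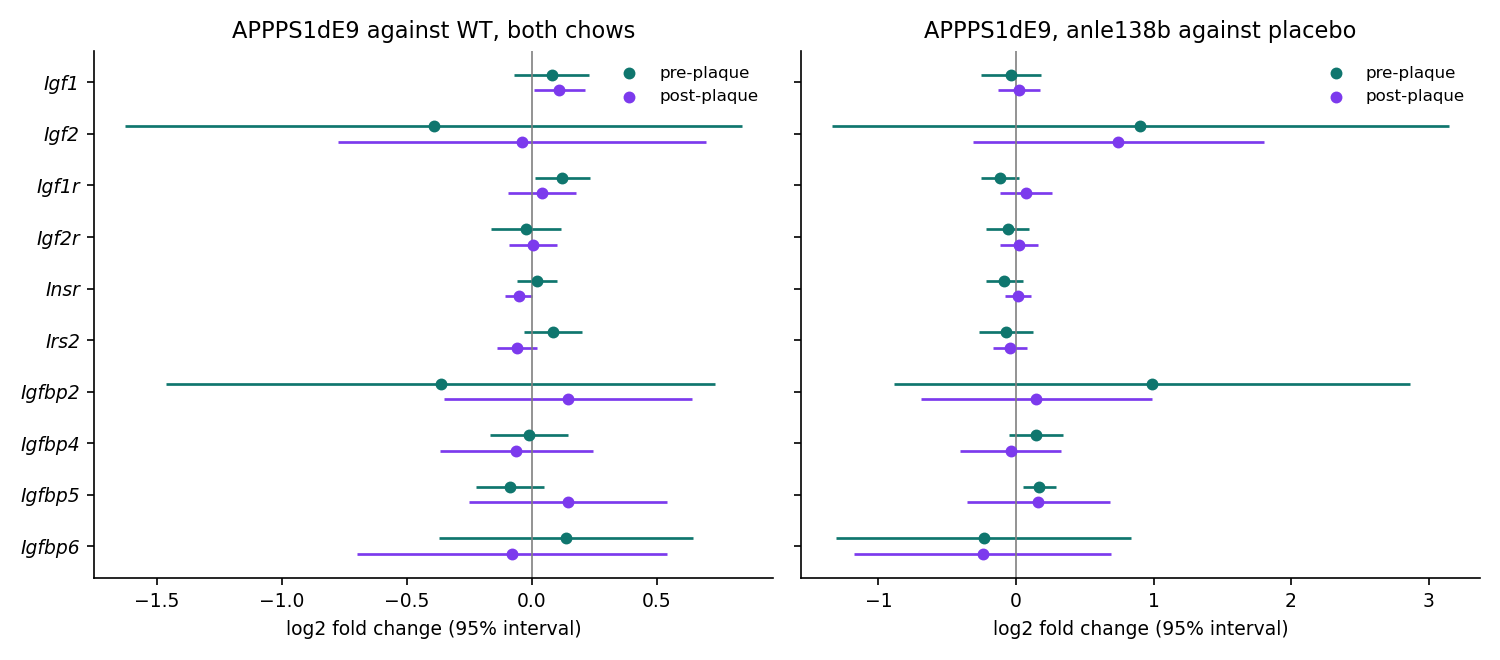
The log2 fold change of each of the 10 genes, with its 95% confidence interval, for APPPS1ΔE9 against WT over both chows (left) and for anle138b against placebo in APPPS1ΔE9 mice (right), in the pre-plaque (green) and post-plaque (purple) group. The intervals of Igf2 and Igfbp2 are the widest in the pre-plaque group, from -1.63 to 0.84 and from -1.46 to 0.73 for the genotype, while that of post-plaque Insr runs from -0.11 to 0.00.

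Igf1 (chromosome 10, 87858265 to 87937042, in GRCm38 as are all positions here) was nearly level across all mice, with 127 to 323 reads per mouse. In placebo-treated post-plaque mice the level was 10.1, 9.45, 10.2, 8.53 and 9.39 CPM in WT and 9.52, 11.6, 9.81, 10.3 and 10.4 CPM in APPPS1ΔE9 mice. With anle138b it was 8.63, 9.27, 9.89, 10.5 and 10.1 CPM in WT, and between 9.59 and 11.7 CPM with a median of 10.4 CPM in APPPS1ΔE9 mice. All 4 groups overlapped. In the pre-plaque group the placebo-treated WT mice had 10.0, 9.90, 10.3 and 10.6 CPM and the placebo-treated APPPS1ΔE9 mice 10.8, 9.87, 11.1 and 9.73 CPM. The anle138b-treated WT mice had 9.83, 7.23, 9.84 and 9.84 CPM, and the anle138b-treated APPPS1ΔE9 mice 8.92, 9.37, 10.6 and 11.6 CPM. The single low value belonged to mouse 39, and no group stood apart.

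Over both chows, Igf1 in post-plaque APPPS1ΔE9 mice had a log2 fold change of 0.11 ± 0.05 (SE) against WT, an interval of 0.01 to 0.21 (12 against 10 mice, edgeR adjusted p = 0.64), which does not pass the threshold. In the pre-plaque group it was 0.08 ± 0.07 (8 against 8 mice, edgeR adjusted p = 0.71). Over the same post-plaque mice Cst7, a cystatin of microglia at plaques, lay between 6.70 and 21.6 CPM in APPPS1ΔE9 mice and between 0.0405 and 0.463 CPM in WT mice, without overlap. The mean log2 CPM of 15 genes of plaque-associated microglia was 2.79 to 3.82 in these APPPS1ΔE9 mice and 1.27 to 1.89 in WT, and that of 12 genes of homeostatic microglia 4.94 to 5.53 and 4.62 to 4.96. The genotypes thus did not overlap in the plaque-associated list and overlapped slightly in the homeostatic list, while Igf1 lay between 8.53 and 11.7 CPM over all of these mice. The differences of the lists themselves were not tested. With the homeostatic microglia score as a covariate, its log2 fold change was 0.05 ± 0.08 (edgeR adjusted p = 0.76). In whole tissue, a change in the number of microglia and a change in RNA per cell cannot be told apart.

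**Figure D2:**
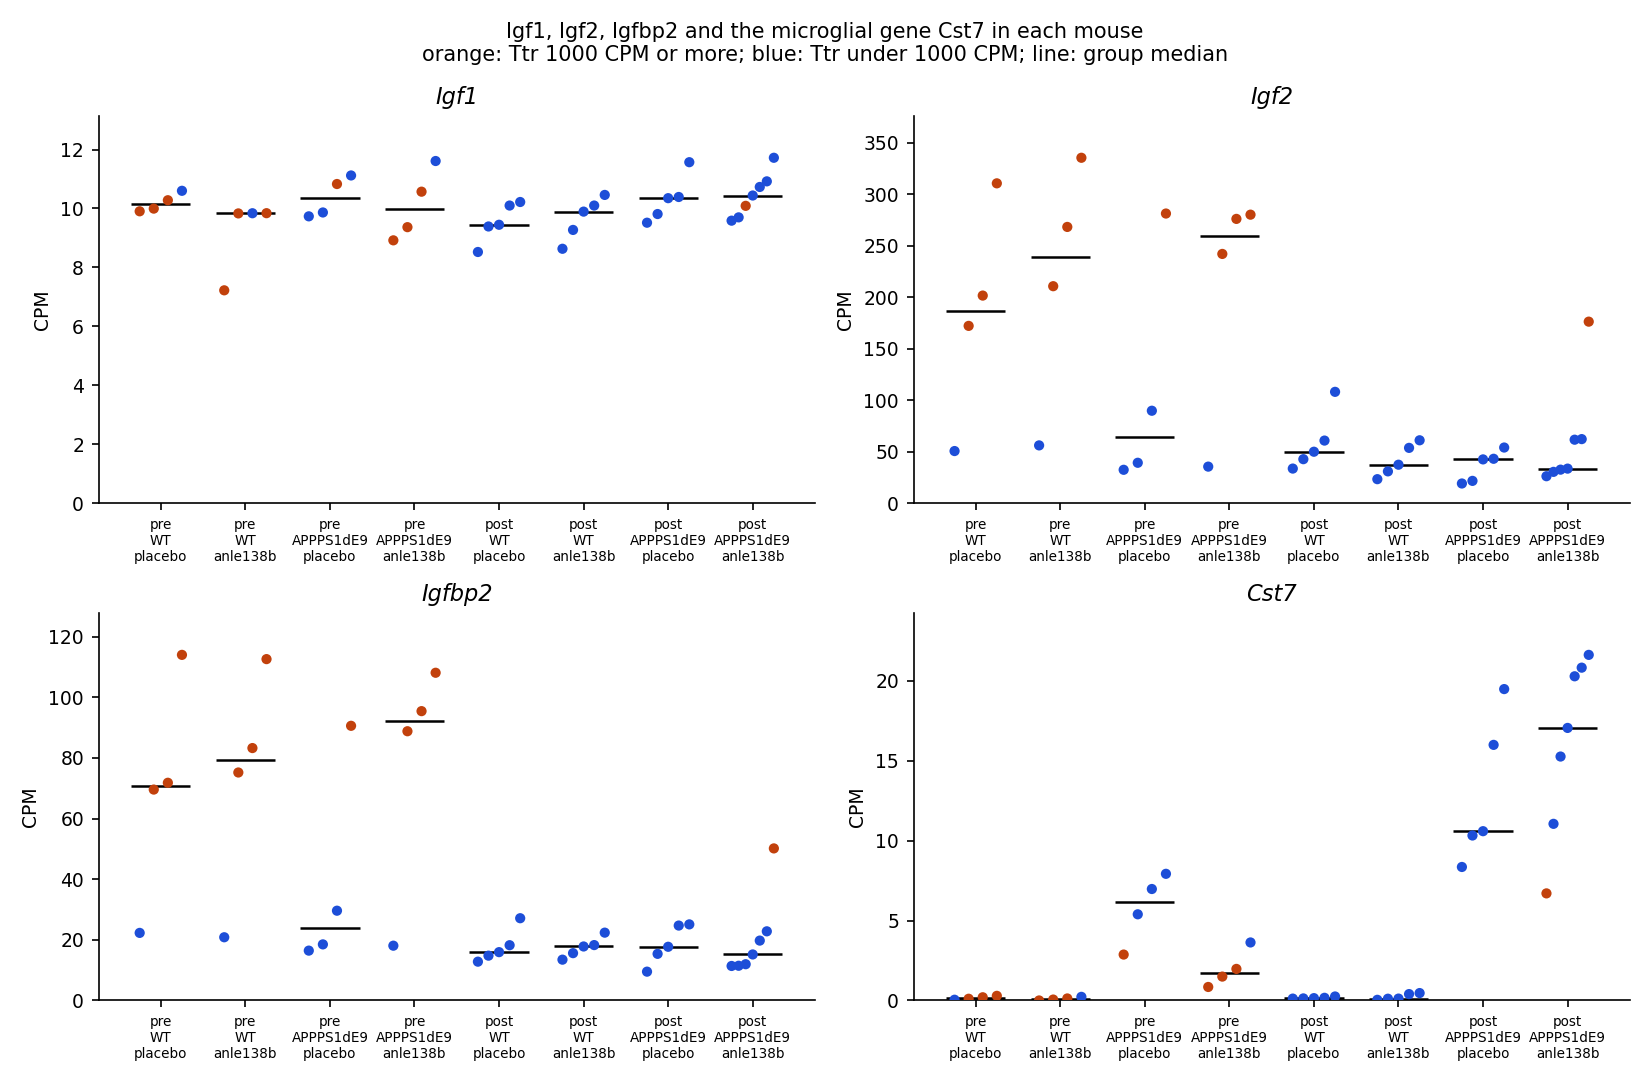
Level of Igf1, Igf2, Igfbp2 and Cst7 (CPM, linear axes from 0) in each of the 38 mice by group, with a line at the group median; orange points are mice with Ttr of 1000 CPM or more and blue points those with less. Igf1 stays between 7.23 and 11.7 CPM in every group, Igf2 and Igfbp2 are high in the orange mice, and Cst7 is high in the APPPS1ΔE9 groups.

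Within groups, the correlation of Igf1 with either microglial list did not pass an adjusted p of 0.05. Over deviations from the group mean in 38 mice, Pearson's r with the homeostatic microglia score was 0.32 (permutation p = 0.0698, adjusted over 40 pairs of gene and list 0.164; Spearman's rho 0.29) and with the plaque-associated score 0.22 (adjusted permutation p = 0.372). With the leptomeninges score it was 0.05 (adjusted permutation p = 0.798). Of 8 further lists, 1 passed for Igf1, the score of 5 astrocyte genes (Aqp4, Aldh1l1, Slc1a3 and Gja1 the first), at r = 0.41 (permutation p = 0.0138, adjusted over 80 pairs 0.0394) and rho = 0.36 (adjusted permutation p = 0.0946). The 5 genes most like Igf1 in these deviations were Jam2 (r = 0.64), Lrch2, Gm14418, Lrrc75a and Arhgap30 (r = 0.61), which is far below the values for Igf2 and Igfbp2. JAM2 is a junctional adhesion molecule, and none of the 5 is in a list used here. Igf1 had 127 to 323 reads per mouse and spread 1.62-fold over the mice, against 17.4-fold for Igf2 and 11.99-fold for Igfbp2. Few reads and a small spread leave little to correlate, and the part of counting error in the values for Igf1 was not tested.

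**Figure D3:**
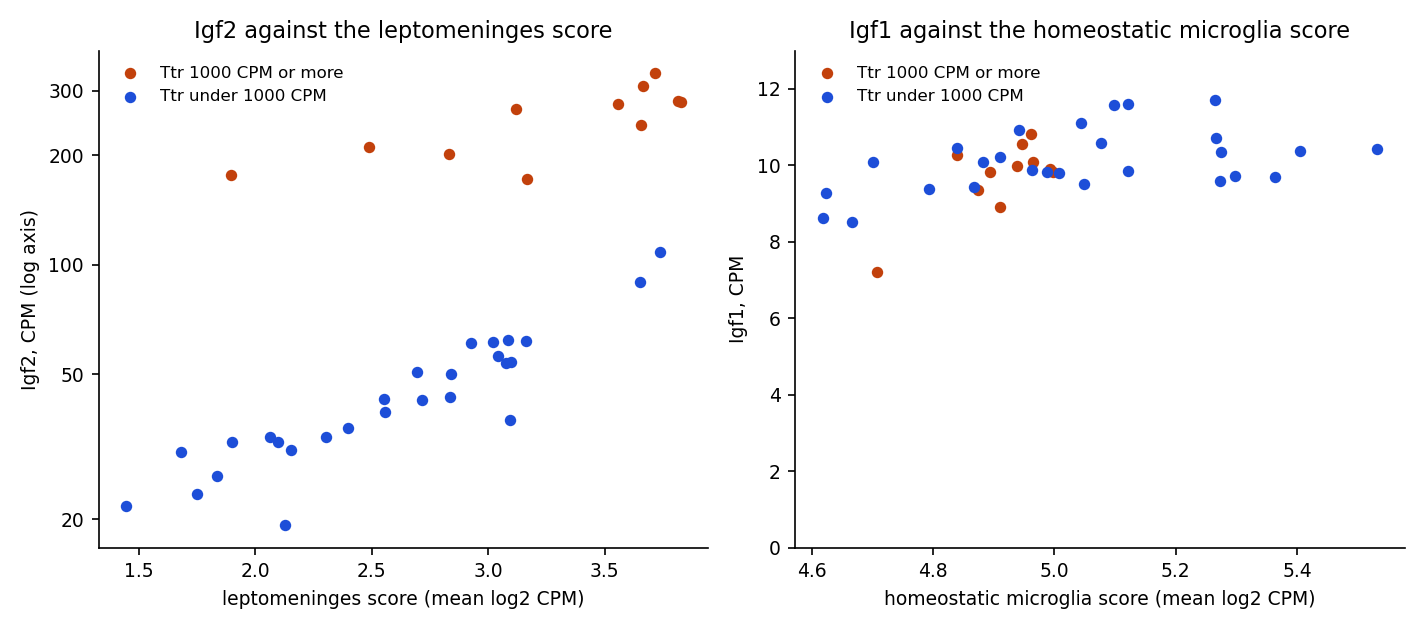
Left, Igf2 (CPM, log axis) against the leptomeninges score; right, Igf1 (CPM, linear axis) against the homeostatic microglia score, for each of the 38 mice, with scores as mean log2 CPM. Igf2 rises along the leptomeninges score in the 27 mice with Ttr under 1000 CPM (blue), and the 11 other mice (orange) all lie above them, while Igf1 lies between 7.23 and 11.7 CPM along the whole microglia score.

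The mice fell into a pair of separate clusters by choroid plexus RNA, and Igf2 and Igfbp2 fell with them. Ttr, the transthyretin gene that fills the choroid plexus, was at 3731 to 7509 CPM in 11 mice and at 12.9 to 655 CPM in the other 27. Folr1, Kl and Kcnj13, the next genes of the choroid list, also did not overlap between these mice, with 29.3 to 63.3 CPM against 0.313 to 3.58 CPM for Folr1. Of the 11 mice, 10 were in the pre-plaque group, 3 of 4 in each group except the placebo-treated APPPS1ΔE9 mice with 1 of 4. The post-plaque group held 1, mouse 99 of the 7 anle138b-treated APPPS1ΔE9 mice. All results on Igf2 and Igfbp2 rest on this split, whose origin was not tested. The split was set after the data were seen, and the share of all genes without overlap between these mice was not counted.

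Igf2 (chromosome 7, 142650766 to 142666816, minus strand) was at 172 to 335 CPM, with a median of 268 CPM, in the 11 mice and at 19.3 to 108.2 CPM, with a median of 42.7 CPM, in the 27. In the pre-plaque group the placebo-treated WT mice had 172, 310.5, 202 and 50.8 CPM, and the placebo-treated APPPS1ΔE9 mice 281, 39.4, 32.6 and 89.9 CPM. The anle138b-treated WT mice had 335, 211, 268 and 56.3 CPM, and the anle138b-treated APPPS1ΔE9 mice 276, 242, 280.1 and 35.6 CPM. Within each of these groups the mice split by Ttr, and the groups overlapped. In the post-plaque group the placebo-treated mice had 108.2, 60.9, 50.1, 33.8 and 42.9 CPM (WT) and 54.2, 19.3, 43.3, 21.8 and 42.7 CPM (APPPS1ΔE9). With anle138b, WT mice had 31.1, 23.5, 61.2, 37.5 and 53.8 CPM and APPPS1ΔE9 mice 26.4 to 176 CPM with a median of 33.7 CPM. These groups overlapped as well, and the value of 176 CPM was that of mouse 99. Exons of Igf2 overlap the antisense gene Igf2os and the gene model Gm49394 over 3694 bases in all. The strand setting of the counting is not stated, so it is not known whether reads in these bases were counted as Igf2 or left out.

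Igfbp2 (chromosome 1, 72824503 to 72852474), a binding protein that prefers IGF2, showed the same split, with 50.2 to 114 CPM in the 11 mice and 9.504 to 29.6 CPM in the 27. In the pre-plaque group it was 71.8, 114, 69.6 and 22.3 CPM in placebo-treated WT mice and 90.6, 16.4, 18.5 and 29.6 CPM in placebo-treated APPPS1ΔE9 mice. With anle138b it was 113, 75.2, 83.3 and 20.8 CPM in WT and 108.1, 88.8, 95.4 and 18.1 CPM in APPPS1ΔE9 mice. The lowest mouse of each group, and the lowest 3 of the placebo-treated APPPS1ΔE9 mice, were those with little Ttr. In post-plaque mice the level was 12.8 to 27.1 CPM (placebo) and 13.5 to 22.4 CPM (anle138b) in WT, 9.504 to 25.1 CPM in placebo-treated and 11.4 to 50.2 CPM in anle138b-treated APPPS1ΔE9 mice. The highest value was again that of mouse 99. Igf2r, the clearance receptor of IGF2, also differed along the split in the pre-plaque group, with 55.9 to 67.0 CPM and a median of 62.4 CPM in the 10 mice with much Ttr against 50.1 to 63.9 CPM and 54.4 CPM in the other 6, though its ranges overlapped. The medians of Igfbp4 (64.2 against 73.9 CPM) and Igfbp6 (9.77 against 7.53 CPM) differed between the same mice too, with overlapping ranges. None of these differences was tested.

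**Figure D4:**
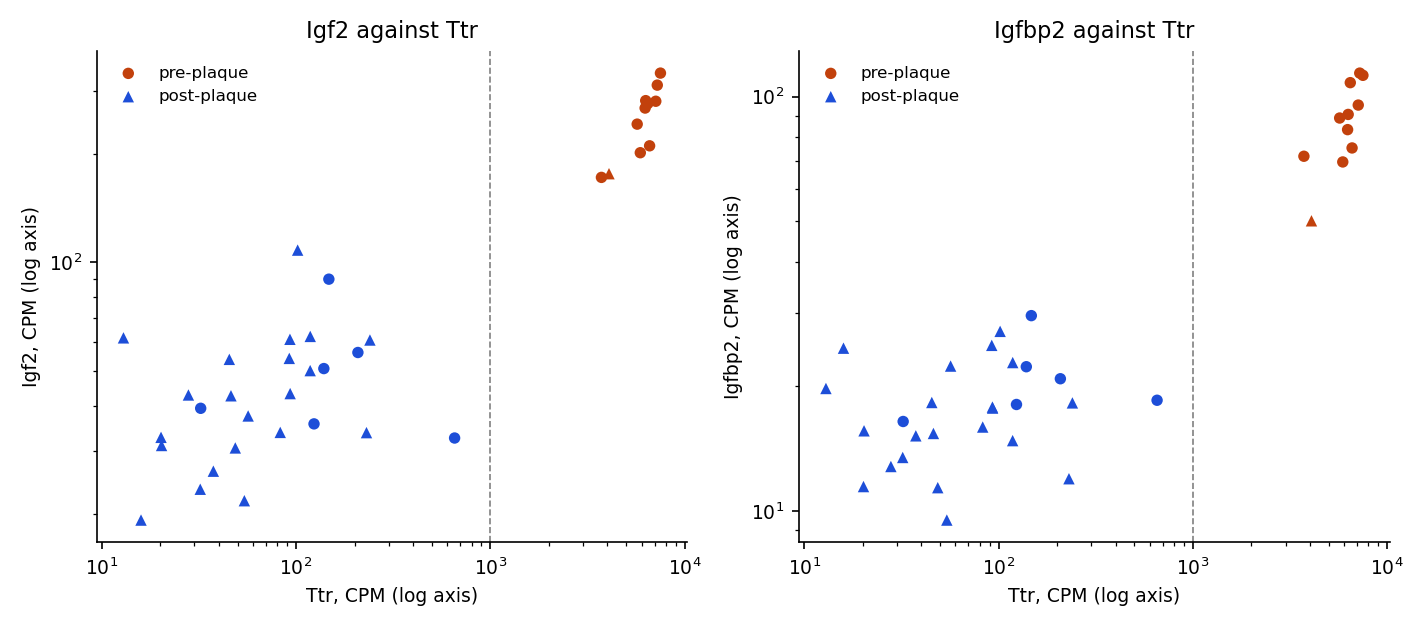
Igf2 (left) and Igfbp2 (right) against Ttr in each of the 38 mice, in CPM on log axes, with circles for pre-plaque and triangles for post-plaque mice and a dashed line at a Ttr level of 1000 CPM. The 11 mice to the right of the line have 172 to 335 CPM of Igf2 and 50.2 to 114 CPM of Igfbp2, and the 27 to the left have at most 108.2 CPM and 29.6 CPM.

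Among the 27 mice with little choroid plexus RNA, Igf2 followed the leptomeninges. The score of 15 leptomeningeal genes, among them Col1a1 and Col1a2 (fibrillar collagen), Slc6a13 (a GABA transporter) and Slc22a6 (an organic anion transporter), correlated with Igf2 at r = 0.94 and rho = 0.94 over deviations from the group mean (permutation p = 1e-05, the smallest that the draws can give, adjusted over 40 pairs 4e-04). Without the 2 mice farthest from the median score r was 0.93. Igfbp2 correlated with the same score at r = 0.79 and rho = 0.78 (permutation p = 0.00016, adjusted 0.0032), and at r = 0.70 without those 2 mice. With the choroid plexus score the values in these mice were lower, r = 0.30 for Igf2 (adjusted permutation p = 0.491) and r = 0.13 for Igfbp2 (adjusted permutation p = 0.852), and 0.65 and 0.38 without the 2 mice farthest from the median. For Igf1 they were -0.00 with the choroid plexus and 0.04 with the leptomeninges score. The difference between the lists was not tested.

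In the 11 mice with much Ttr, 2 of which are alone in their group and add no deviation, Igf2 correlated with the choroid plexus score at r = 0.94 and rho = 0.945 (permutation p = 0.00389, adjusted 0.0519) and with the leptomeninges score at r = 0.83 (adjusted permutation p = 0.25). For Igfbp2 the values were 0.815 and 0.826 (adjusted permutation p = 0.203 for both). In the same 11 mice the plaque-associated microglia score gave r = 0.862 for Igf2 and 0.898 for Igfbp2 (adjusted permutation p = 0.203 and 0.0519), and the homeostatic score 0.751 and 0.755 (adjusted permutation p = 0.274 and 0.278). None of these passed an adjusted p of 0.05. The mice that are not alone lie in groups of 3, so draws within groups give few arrangements. The value of 0.00389 is about the smallest they can give, and no single pair could pass after adjustment, however close it was. In these mice the choroid plexus and leptomeninges lists did not stand apart from the microglial lists. Taking both scores together in a linear description over the 38 mice, they covered 92.9% of the variance of Igf2 deviations and 85.2% of that of Igfbp2. Igf2 and Igfbp2 themselves correlated at r = 0.92 over 38 mice, a value that spans both clusters and is a description only. Over the same 38 mice Igfbp2 fell with the homeostatic microglia score at an adjusted permutation p under 0.05, whereas it rose with that score in the 11 mice.

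The genes most like Igf2 over the 38 mice were Angptl2 (r = 0.96), Dab2, Sema3b, Lepr and Slc13a4 (r = 0.93). Those most like Igfbp2 were Ace (r = 0.94), Cgnl1, Dab2, Col8a1 and Slc31a1 (r = 0.93). Slc13a4, a sulfate transporter, is in the leptomeninges list. Ace encodes angiotensin-converting enzyme and Lepr the leptin receptor. Dab2, an endocytic adaptor, was common to both sets.

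The fold changes of Igf2 and Igfbp2 carried wide errors in the pre-plaque group, where each group held mice of both Ttr classes. For APPPS1ΔE9 against WT over both chows in the pre-plaque group, the log2 fold change of Igf2 was -0.39 ± 0.57 (SE, edgeR adjusted p = 0.83) and that of Igfbp2 -0.36 ± 0.51 (edgeR adjusted p = 0.82). With the choroid plexus and leptomeninges scores as covariates the errors narrowed, to -0.15 ± 0.13 for Igf2 (edgeR adjusted p = 0.72) and -0.03 ± 0.09 for Igfbp2 (edgeR adjusted p = 0.95). With the dentate and pyramidal cell scores instead they were 0.12 ± 0.57 and 0.25 ± 0.53. Within the 10 pre-plaque mice with much Ttr the values were 0.09 ± 0.20 and 0.10 ± 0.17, and neither passed. In the post-plaque group the log2 fold changes were -0.04 ± 0.35 for Igf2 (edgeR adjusted p = 0.99) and 0.15 ± 0.24 for Igfbp2 (edgeR adjusted p = 0.96). With the homeostatic microglia score as a covariate they were 0.60 ± 0.49 and 0.86 ± 0.31 (edgeR unadjusted p = 0.24 and 0.012, adjusted p = 0.48 and 0.17), which also did not pass. Without mouse 99 they were -0.34 ± 0.26 and -0.07 ± 0.18 (edgeR adjusted p = 0.94 and 0.99).

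Placebo-treated post-plaque APPPS1ΔE9 mice had a log2 fold change of -0.71 ± 0.36 for Igf2 against WT (edgeR unadjusted p = 0.079, adjusted p = 1), and with anle138b against placebo in APPPS1ΔE9 mice it was 0.74 ± 0.49 (edgeR adjusted p = 1). With each mouse left out in turn the first ranged from -0.90 to -0.38, the latter without mouse 52, the WT mouse at 108.2 CPM. Without mouse 99 the second was 0.19 ± 0.32 (edgeR adjusted p = 1). The interaction of genotype and chow for Igf2 in the post-plaque group was 1.25 ± 0.65 (edgeR unadjusted p = 0.068, adjusted p = 0.99), and 0.70 without mouse 99.

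Of the receptors, Igf1r (chromosome 7, 67952827 to 68233668) showed its largest difference in placebo-treated pre-plaque mice. The level was 61.6, 70.9, 70.0 and 64.4 CPM in WT and 78.2, 84.5, 80.6 and 68.3 CPM in APPPS1ΔE9 mice, with 1 transgenic mouse inside the range of WT. The fold change was 1.17, a log2 fold change of 0.22 ± 0.07 (edgeR unadjusted p = 0.0073, adjusted p = 0.36). Y-linked genes were nearly absent in 3 of these 4 WT mice and in 0 of the 4 APPPS1ΔE9 mice, and with Y-linked expression as a covariate the difference was 0.17 ± 0.11 (edgeR unadjusted p = 0.15, adjusted p = 0.99). Anle138b-treated APPPS1ΔE9 mice had 75.04, 73.4, 69.0 and 70.4 CPM, a log2 fold change of -0.12 ± 0.06 against placebo (edgeR adjusted p = 0.45). The interaction of genotype and chow was -0.19 ± 0.10 (edgeR adjusted p = 0.63). The genotype effect on placebo was lower by 0.28 ± 0.11 on the log2 scale in the post-plaque than in the pre-plaque group (edgeR unadjusted p = 0.023, adjusted p = 0.77). None of these passed the threshold.

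Insr (chromosome 8, 3122061 to 3279617, minus strand) and Igf2r (chromosome 17, 12682406 to 12769664, minus strand) varied least of all. Insr was at 65.6 to 80.2 CPM in the 16 pre-plaque mice and at 76.9 to 87.8 CPM in the 22 post-plaque mice. Age and cohort cannot be told apart here, and the difference was not tested. The log2 fold change of Insr for APPPS1ΔE9 against WT was -0.05 ± 0.03 in the post-plaque group (edgeR adjusted p = 0.74) and 0.02 ± 0.04 in the pre-plaque group (edgeR adjusted p = 0.88). Igf2r was at 50.1 to 70.1 CPM over all mice and its genotype differences were -0.02 ± 0.07 and 0.00 ± 0.05 in the pre-plaque and post-plaque group (edgeR adjusted p = 0.92 and 0.99). The widest of these 4 intervals, that of Igf2r in the pre-plaque group, ran from -0.16 to 0.12 on the log2 scale. Irs2 (chromosome 8, 10984681 to 11008458, minus strand), which shares 162 exon bases with the antisense gene 9530052E02Rik, was at 58.4 to 88.1 CPM and had genotype differences of 0.09 ± 0.06 and -0.06 ± 0.04 (edgeR adjusted p = 0.60 and 0.86).

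The binding proteins Igfbp5, Igfbp4 and Igfbp6 differed between post-plaque mice with a low and with a high score of dentate granule cell genes, a split set after the scores were seen and not tested. The mean log2 CPM of 4 dentate granule cell genes (Prox1, Dsp, C1ql2 and Tdo2) was 3.48 to 5.11 in 9 post-plaque mice and 5.51 to 6.37 in the other 13, and 4.64 to 5.72 in the 16 pre-plaque mice. Of the 9 mice, 2 were WT on placebo, 3 WT on anle138b, and 2 APPPS1ΔE9 on each chow, so they were spread over all 4 groups. Of the 12 marker lists, 3 others did not overlap between these mice and were also lower in the 9, pyramidal cells (5.10 to 5.43 against 5.78 to 6.12), oligodendrocytes (7.63 to 8.37 against 8.75 to 9.33) and thalamus (3.19 to 3.50 against 3.71 to 4.17). The part of any of these lists in the differences below was not tested, and the share of all genes that differ between these mice was not counted. Igfbp5 (chromosome 1, 72857932 to 72874884, beside Igfbp2 on the opposite strand), known from dentate granule cells, was at 91.2 to 197 CPM in the 9 mice, with a median of 131 CPM, and at 169 to 288 CPM in the 13, with a median of 231 CPM. Igfbp4 (chromosome 11, 99041244 to 99054392) was at 47.2 to 62.3 CPM and 53.7 to 101 CPM, and Igf1r at 72.2 to 83.5 CPM and 82.6 to 98.9 CPM. Igfbp6 (chromosome 15, 102144362 to 102149511) went the other way, with medians of 10.6 CPM and 5.93 CPM, and its ranges overlapped. The medians of Igf2r (63.7 and 57.7 CPM), Irs2 (67.7 and 63.4 CPM) and Igfbp2 (19.8 and 15.4 CPM) were also higher in the 9. Those of Igf2 (33.8 and 43.3 CPM) and Insr (82.0 and 84.5 CPM) were lower, all with overlapping ranges. Igf1 did not follow, with medians of 10.1 CPM in both.

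**Figure D5:**
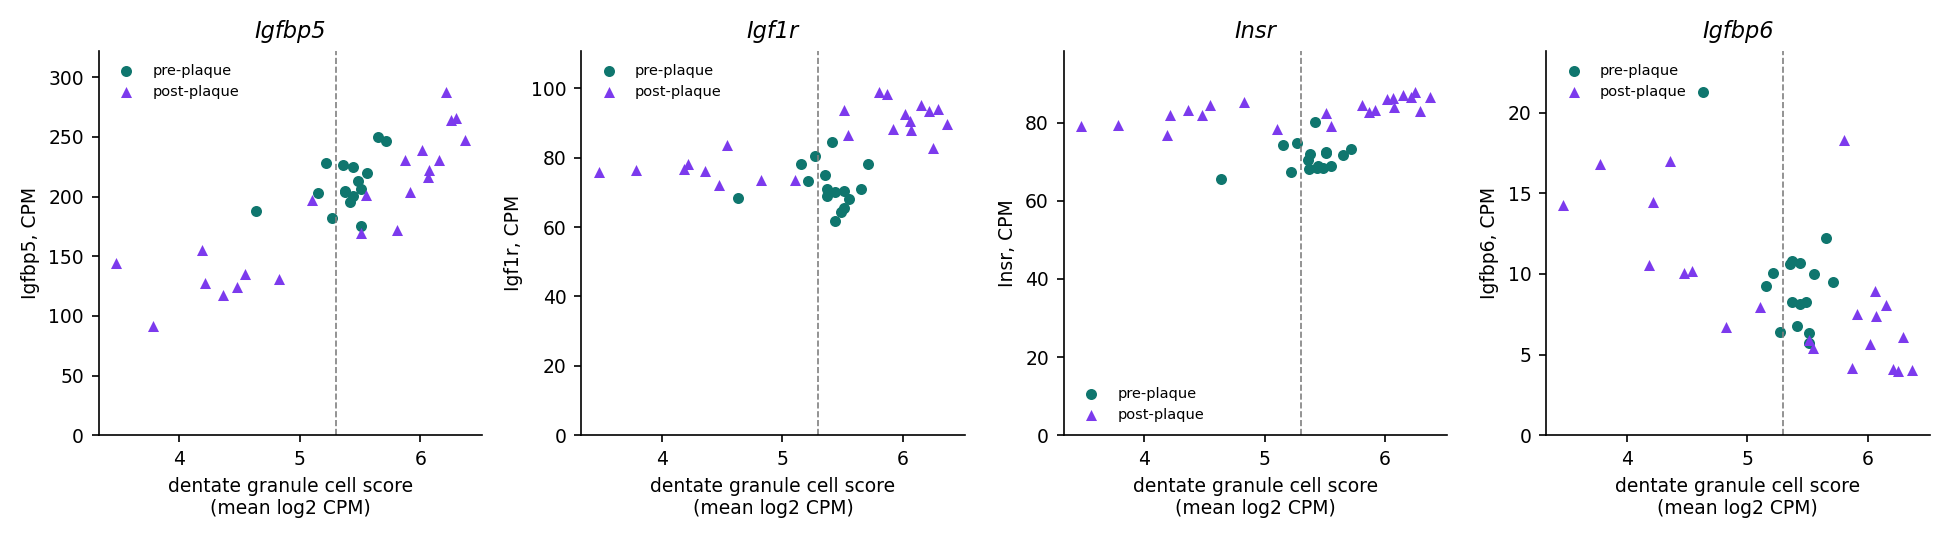
Level of Igfbp5, Igf1r, Insr and Igfbp6 (CPM, linear axes from 0) against the dentate granule cell score (mean log2 CPM of 4 genes) in pre-plaque (circles) and post-plaque (triangles) mice, with a dashed line at a score of 5.3. To the left of the line the post-plaque mice have 91.2 to 197 CPM of Igfbp5 and at most 83.5 CPM of Igf1r, and to the right 169 to 288 CPM and 82.6 to 98.9 CPM.

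Inside these sets of mice, the deviation of Igfbp5 from its group mean correlated with the dentate score at r = 0.88 in the 13 mice (permutation p = 0.0121, adjusted over 20 pairs 0.243), at r = 0.24 in the 9 (adjusted permutation p = 0.881) and at r = 0.25 in the 16 pre-plaque mice (adjusted permutation p = 0.542). Insr correlated with it at r = 0.90 in the pre-plaque mice (permutation p = 0.00187, adjusted 0.0187), at 0.70 without the 2 mice farthest from the median, and at r = 0.70 and 0.72 in the 9 and the 13 post-plaque mice (adjusted permutation p = 0.526 and 0.425). The other genes and sets gave no adjusted p under 0.05 with the dentate score. The 9 mice lie in groups of 2 or 3, so draws within groups give few arrangements. An adjusted p under 0.05 could hardly be reached in them, and their adjusted values decide nothing. With the pyramidal cell score, Igf2 and Igfbp2 of pre-plaque mice passed an adjusted p of 0.05, at r = -0.80 (adjusted permutation p = 0.0187) and -0.76 (adjusted permutation p = 0.0191). For the same genes r was -0.93 and -0.88 in the 9 mice (permutation p = 0.042 and 0.0209, adjusted 0.42 and 0.418). In the 13 mice it was -0.45 and -0.41 (adjusted permutation p = 0.675 for both).

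Igfbp5 had the smallest unadjusted p of the binding proteins in placebo-treated pre-plaque mice. It was at 225, 250.0, 200.3 and 213 CPM in WT and 203, 196, 182 and 188 CPM in APPPS1ΔE9 mice, and at 226, 228, 205 and 207 CPM in anle138b-treated APPPS1ΔE9 mice. The anle138b-treated APPPS1ΔE9 mice all lay above the placebo-treated ones, while WT and placebo-treated APPPS1ΔE9 mice overlapped by 1 mouse. The anle138b-treated APPPS1ΔE9 mice were all in lane 6 and the placebo-treated ones all in lane 5, so chow and lane cannot be told apart here. The log2 fold change was -0.21 ± 0.07 for the genotype (edgeR unadjusted p = 0.0078, adjusted p = 0.36) and 0.17 ± 0.05 for anle138b in APPPS1ΔE9 mice (edgeR unadjusted p = 0.0083, adjusted p = 0.31). Both share the same 4 placebo-treated APPPS1ΔE9 mice. With Y-linked expression as a covariate, for the reason given for Igf1r, the genotype difference was -0.07 ± 0.09 (edgeR adjusted p = 0.99). In the post-plaque group over both chows the difference was 0.14 ± 0.19 (edgeR adjusted p = 0.95).

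For Igfbp4 the genotype differences over both chows were -0.01 ± 0.07 before plaques and -0.06 ± 0.15 after, and for Igfbp6 0.14 ± 0.24 and -0.08 ± 0.30 (edgeR adjusted p = 0.86 to 0.98). Igfbp6, which prefers IGF2, ranged from 3.98 to 21.3 CPM, and its highest value was a placebo-treated pre-plaque APPPS1ΔE9 mouse.

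The wider pathway was near the background as well. Of 55 further genes from ligands and their proteases to PI3 kinase, AKT, mTOR and the FOXO factors, 47 to 50 were tested in each comparison, and 0 passed an adjusted p under 0.1 in edgeR in any, where 0% to 1.56% of all genes did. At an unadjusted p under 0.05, the list held 3 higher and 2 lower genes in placebo-treated pre-plaque APPPS1ΔE9 mice, 10.2% of those tested against 11.1% of all genes. Over both chows in post-plaque mice it held 0 higher and 1 lower, 2.04% against 7.07% of all genes. Its median log2 fold change was 0.03 against 0.00 for all genes in the first and 0.00 against -0.00 in the second comparison.

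The lanes named in the titles nearly follow genotype. WT mice were in lanes 3, 4 and 5 and APPPS1ΔE9 mice in lanes 5 and 6. A genotype difference within a lane and chow therefore cannot be had. Lanes also follow chow in most groups. Pre-plaque APPPS1ΔE9 mice were all in lane 5 on placebo and all in lane 6 on anle138b. Post-plaque APPPS1ΔE9 mice were in lane 5 on placebo, and on anle138b 6 were in lane 6 and 1 in lane 5. Post-plaque WT mice were in lane 3 (4 mice) and lane 4 (1 mouse) on placebo and in lane 4 on anle138b. In these mice chow and lane can hardly be told apart. The counts summed to 15847985 to 31895808 reads per mouse. Y-linked genes were nearly absent in 1 to 3 mice of 5 groups, 4 of which are WT groups. Xist, expressed in females, was at 1170 to 1440 CPM in these mice and at most 5.39 CPM in the others. The paper describes all mice as male. By these genes, females were 3 of 4 pre-plaque WT mice on placebo and 2 of 4 on anle138b. They were also 3 of 5 post-plaque WT mice on each chow and 1 of 7 post-plaque APPPS1ΔE9 mice on anle138b. Sex thus follows genotype in part in every genotype comparison.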

How the data were processed

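RNA from the hippocampus of 38 mice was sequenced from mRNA libraries. The authors mapped reads to mm10 with STAR, counted them with HTSeq in intersection-nonempty mode, and deposited raw counts of 48709 genes per mouse. The annotation release and the strand setting are not given in the sources used here. Gene names came from GENCODE M21, which holds 48349 of the genes.

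Counts were filtered with filterByExpr (minimum count 10, minimum total 15), normalized with TMM and tested with edgeR 4.0.16 (quasi-likelihood, R 4.3.3), for each pair of groups and in fits over 4 groups, with Benjamini-Hochberg adjustment over all genes tested and a threshold of 0.1. The SE was obtained as the absolute log2 fold change over the root of the F statistic. CPM used TMM over all 38 mice, and scores are mean log2 CPM with a prior count of 2. Correlations used deviations from group means and two-sided permutation tests with 100000 draws within groups.

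Groups came from titles. Totals were 15847985 to 31895808 per mouse. Each sample is labelled as a mouse of its own. The replicates were compared, and the 75 pairs within groups differed by 3.17 to 65.3 times the counting error (chi-square per degree of freedom), so none was a duplicate. The mice with the same running number in 2 groups did not deviate together in every pair of any of the 8 comparisons of 2 groups, since each had a pair with r of 0.1 or less. The number was therefore not used as a block in the main fits. In post-plaque WT mice by chow, r was 0.319, 0.508, 0.567 and 0.367 in the other pairs and -0.221 in that pair, with a mean of 0.308. The methods were tested on simulated counts.

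The 10 genes and the lists were chosen with earlier results of these data known. Named genes are the 10, the 5 genes most like each of Igf1, Igf2 and Igfbp2, the first 4 genes of a list, App and Xist. DESeq2 1.42.0, other normalization, no filter, covariates, single lanes and left-out mice were tried as alternatives. The splits by Ttr and by the dentate score were chosen after seeing the data.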

Additional observations from a re-analysis of the deposited data

Results flagged for a closer look

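Of 80 sets of values, 10 genes in 8 groups, 8 held a mouse far from the others of its group by Dixon's test, where chance gives about 1 in 20. Igf1 was at 7.23 CPM in mouse 39 of the anle138b-treated pre-plaque WT mice, against 9.83 to 9.84 CPM in the other 3. Igf2 was at 35.6 CPM in mouse 84 of the anle138b-treated pre-plaque APPPS1ΔE9 mice, against 242 to 280.1 CPM, and Igfbp6 in the same mouse was at 5.75 CPM against 10.1 to 10.8 CPM. Mouse 84 is the 1 mouse of that group with Ttr under 1000 CPM. In mouse 99 of the anle138b-treated post-plaque APPPS1ΔE9 mice Igf2 was at 176 CPM against 26.4 to 62.3 CPM and Igfbp2 at 50.2 CPM against 11.4 to 22.8 CPM, and this mouse alone of its cohort had Ttr above 1000 CPM. Igf2r was at 50.1 CPM in mouse 83 of the anle138b-treated pre-plaque WT mice, against 64.7 to 66.9 CPM, and this mouse, with Ttr at 208 CPM, is the 1 mouse of its group under 1000 CPM. Among placebo-treated pre-plaque WT mice, Insr was at 71.6 CPM in mouse 31 against 68.4 to 68.8 CPM, and Igfbp4 at 75.6 CPM in mouse 77 against 61.5 to 63.4 CPM. Mouse 77, with Ttr at 139 CPM, is likewise the 1 mouse of that group under 1000 CPM.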

How the results depend on the processing

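Under 329 alternative settings over the 14 comparisons, 0 of the 10 genes passed the threshold in any, and the lowest adjusted p of any gene was 0.129. With the replicate block the count was also 0 in each comparison, and the number is a running number of the mice. The count of all genes called moved more than 1.5 times, from 12 to between 4 and 205 (APPPS1ΔE9 against WT, pre-plaque, placebo), 8 to between 5 and 44 (anle138b), 55 to between 13 and 116 (post-plaque, placebo), 124 to between 12 and 272 (anle138b), 30 to between 7 and 222 and 275 to between 87 and 322 (both chows, pre-plaque and post-plaque), and 9 to between 3 and 317 (anle138b against placebo in pre-plaque APPPS1ΔE9 mice). For the change of the genotype effect it moved from 5 to between 2 and 40 on anle138b and from 0 to 16 on placebo, for the interactions from 0 to at most 28 and 2, and for chow in WT mice from 0 to at most 2 and 1 (pre-plaque and post-plaque).

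In mice with Ttr under 1000 CPM, r with the choroid plexus score was 0.299 for Igf2 and 0.13 for Igfbp2, r with the homeostatic microglia score 0.083 and -0.253, and with the plaque-associated score 0.453 and 0.174. In mice with more Ttr these values were 0.941 and 0.815, 0.751 and 0.755, and 0.862 and 0.898, with the leptomeninges score 0.829 and 0.826, and for Igf1 with the choroid plexus score 0.327. In post-plaque mice only, r of Igf2 and Igfbp2 was 0.712 and 0.621 with the choroid plexus and 0.612 and 0.474 with the leptomeninges score, and that of Igfbp2 with homeostatic microglia -0.513. In pre-plaque mice only, that last value was -0.528, and Igf1 with the leptomeninges gave -0.086. With the median over the list, Igfbp2 with homeostatic microglia gave -0.303, and Igf2 and Igfbp2 with the plaque-associated list 0.119 and 0.095. Over the 38 mice together, Igf2 and Igfbp2 rose with the choroid plexus and leptomeninges scores at an adjusted permutation p under 0.05. Igfbp2 also fell with the homeostatic microglia score at an adjusted permutation p under 0.05. Against the 38 mice together, the values listed above changed sign or lost an adjusted p under 0.05, and the cause was not tested. Sets within Ttr classes hold fewer mice, and in mice with more Ttr no single pair could reach an adjusted p under 0.05.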
